A study of Rattus norvegicus with 32 samples.

Results

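Calcium and cyclic nucleotide signaling genes were measured in the hippocampus of rats with a model of Alexander disease, an astrocyte disorder caused by mutations of Gfap, which encodes the intermediate filament protein of astrocytes. The genes described here are the 66 whose symbols begin with the family names Camk, Calm, Atp2a or Atp2b, Ppp3, Ppp1r1, Adcy, Pde, Prka, Prkc, Itpr, Ryr, Cacn, Plcb, Plcd or Plcg, Gna and Rgs, out of 3289 genes with a symbol and 23822 genes in all. Of the 66, 57 belong to calcium and cyclic nucleotide families in the strict sense and 9 only share the prefix: Prkab1, Cacng3, Ppp1r12b, Ppp1r14b-ps2, Ppp1r15a, Ppp1r18, Itprid2, Itpripl1 and Itpripl2. The members were thus chosen by measured values: symbols came from 4 lists of genes, sorted by their difference between R237H and WT rats, so a gene had a symbol only if it stood high in at least 1 of the 4 comparisons described here. Other genes of the same families, Camk2a among them, were not analysed here.

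R237H rats were heterozygous for the R237H missense mutation in the rat Gfap gene (Gfap+/R237H) and were compared with WT littermates (Gfap+/+), all on the outbred Sprague Dawley strain Crl:CD(SD). Hippocampus was collected at P21 and at P56, and polyA-selected, stranded libraries of 32 rats were sequenced. Each group of 1 sex, age and genotype held 4 rats, except that the P21 females were 5 R237H and 3 WT rats. The mutation is carried in every cell but Gfap is expressed mainly in astrocytes, and the tissue is a mixture of all hippocampal cell types. In such bulk samples fewer cells of a type and less RNA per cell cannot be told apart.

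In these pathways, receptors at the cell surface act through G protein alpha subunits, which RGS proteins switch off. Alpha subunits control adenylyl cyclases, which make cAMP, and phospholipase C, which makes diacylglycerol for protein kinase C and inositol trisphosphate for calcium release from the endoplasmic reticulum. Calcium entering through voltage-gated channels or released from stores binds calmodulin, which activates CaM kinases and calcineurin, and pumps then clear it. In hippocampal neurons the CaM kinase and protein phosphatase branches are known for their part in synaptic plasticity. Astrocytes and microglia use other isoforms of the same families.

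Total expected counts ran from 21580397 to 55544871 per rat. Gfap itself was higher in R237H rats by 2.85 ± 0.22 in males and 2.89 ± 0.14 in females at P56, and by 2.53 ± 0.08 and 2.89 ± 0.16 at P21 (log2 fold change ± SE throughout; the mutant allele was not examined). Summed TPM (a unit scaled to gene length and library depth) of 10 of 10 microglial markers was 209.6 to 373.8 in WT and 1929 to 2974 in R237H males at P56, 300.9 to 379.5 and 1757 to 2769 in females at P56, 329.6 to 343.1 and 862.3 to 1071 in males at P21, and 281.1 to 323.5 and 751.3 to 1323 in females at P21. No microglial marker was at 0 in any rat. Of the neuron markers only 2 of 10 had a symbol (Rbfox3 and Neurod6), and their summed TPM was 264.2 to 315.5 in WT and 157.3 to 236 in R237H males at P56, without overlap, and 225 to 319.5 and 161.1 to 248.1 in females at P56, with overlap. The astrocyte markers (6 of 8, dominated by Gfap) summed to 2645 to 3425 TPM in WT and 5708 to 7273 in R237H males at P56. Of the other markers of that list, Aqp4 was above 0 at P56 without passing (0.52 ± 0.22 in males and 0.42 ± 0.16 in females). The rest went the other way at P56. Gja1 fell by 1.16 ± 0.17 in males and 1.23 ± 0.19 in females, and Aldoc by 0.93 ± 0.14 and 0.84 ± 0.15. S100b (-0.57 and -0.40) and Slc1a2 (-0.58 and -0.48) were below 0 without passing. At P21 Aqp4 rose in males (0.43 ± 0.05) and did not pass in females (0.45 ± 0.12). Gja1 was above 0 there without passing (0.23 ± 0.07 and 0.20 ± 0.11), and Aldoc, S100b and Slc1a2 were below 0. The part of these cell types in the results was not tested. Choroid plexus markers (6 of 7) reached 127.6 to 6196 TPM in 6 rats, namely WT male 2, R237H male 4 and R237H female 4 at P56, and WT male 1, WT female 3 and R237H female 2 at P21, and were at or below 41.08 TPM in the others.

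The question was how each family differed between R237H and WT rats at the 2 ages, and whether isoforms of a family moved together. Because a gene's symbol depended on its own difference between the genotypes, a member was counted as tested in a comparison only if it was listed through other rats. The test was edgeR's quasi-likelihood F-test with Benjamini-Hochberg adjustment over all genes (FDR), and a gene was called at an FDR under 0.01. For other members, values are given as a description with no test. In males at P56, 46 of 57 such members were called (80.7%), against 27.9% of all 15097 genes tested and 76.5% of genes with a symbol listed through other rats. Of these members 26 were higher in R237H rats (45.6%, against 16.8% of all and 59.5% of listed genes) and 20 were lower (35.1%, against 11.1% and 17%). Among females of that age 55 of 61 were called (90.2%, against 28.1% and 80.8%), 27 higher (44.3%, against 17% and 59.9%) and 28 lower (45.9%, against 11.1% and 20.9%). The males at P21 had 31 of 57 called (54.4%, against 17.2% and 64.5%), 21 higher (36.8%, against 12.4% and 53.7%) and 10 lower (17.5%, against 4.82% and 10.7%). The females at P21 had 18 of 62 called (29%, against 7.82% and 37.7%), 16 higher (25.8%, against 7.06% and 34.4%) and 2 lower (3.23%, against 0.753% and 3.24%). The shares called were near or below those of listed genes except in females at P56, with fewer members higher in all 4 comparisons and more members lower in both sexes at P56 and in males at P21. Single rats moved the P21 counts: the 16 higher members in females became 4, 6, 5 and 9 without WT 1, WT 2, WT 3 or R237H 3, the 2 lower ones became 5 without R237H 5, and the 10 lower ones in males became 4, 5, 6 and 5 without WT 2, WT 3, R237H 3 or R237H 4. With rats blocked by the number in their sample titles, whose meaning is not given, the 28 lower members in females at P56 became 13. In females at P21 the 16 higher ones became 3. Since the members were selected on their differences between the genotypes, the comparison of shares is a description.

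The directions were mixed within the set. The median log2 fold change of the 66 members was -0.22 in males and -0.36 in females at P56, and 0.06 and -0.05 at P21, where Gnat2 could not be tested in males. Of the 66, 28 were above 0 in each of the 4 comparisons and 31 were below 0 in each. At P56, 65 of 66 had the same sign in males and females, with Rgs6 the exception. At P21, 63 of 65 had the same sign. These counts of signs include members in the comparison that listed them, so they partly use the values that chose the genes. Shares over all genes were not taken for them. Groups that did not overlap were found for 47 of 57 tested members in males P56, 57 of 61 in females P56, 41 of 57 in males P21 and 35 of 62 in females P21, against 42%, 40.9%, 30% and 21.5% of all genes. The share among listed genes, which like the members were selected on genotype differences, was not taken here. For members at the edge of the lists, Camk2d in males P56 (1.07) was the listed one with the largest FDR. By the same measure Adcy10 in females P56 (2.25) stood beside the unlisted Gna13 (0.86), Pde3b in males P21 (0.46) beside Gnal (-0.26), and Plcb3 in females P21 (0.67) beside Ppp1r1a (-0.27).

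**Figure D1:**
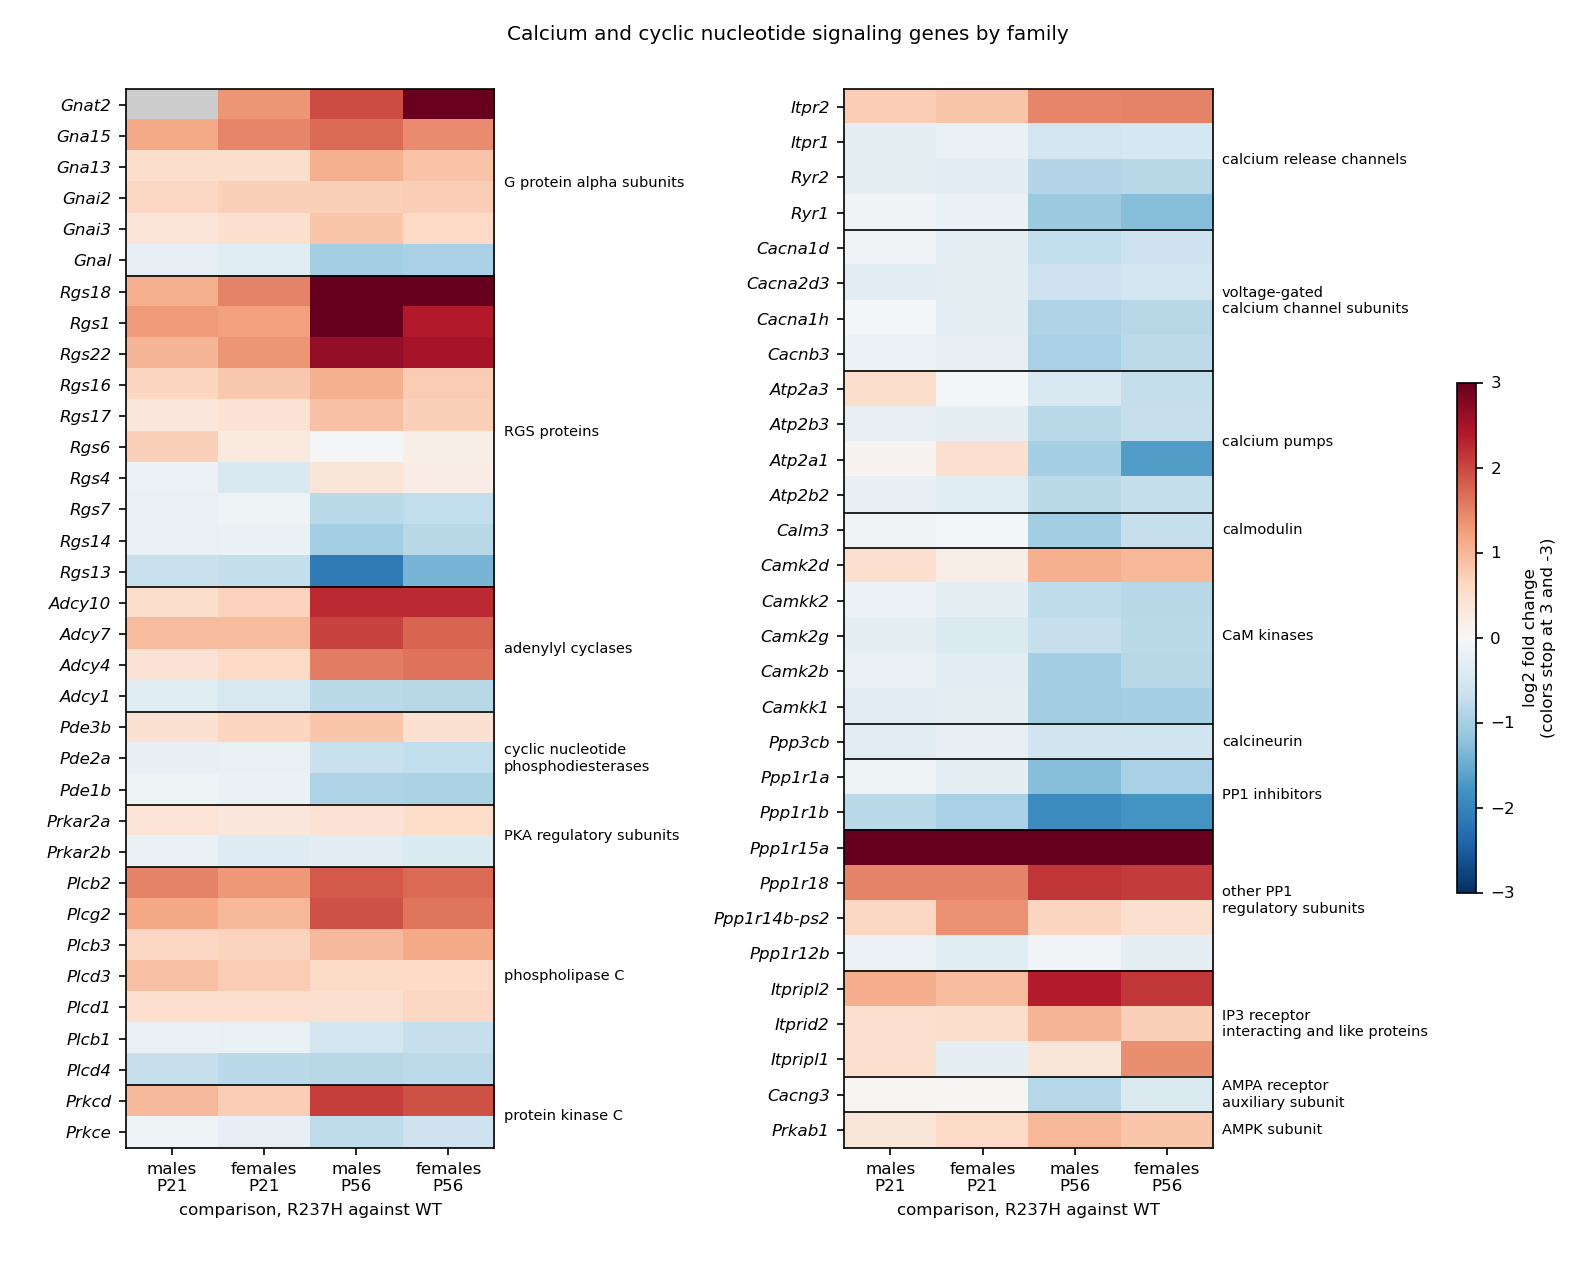
Log2 fold change of R237H against WT rats for each member reported (rows, ordered by family) in the 4 comparisons (columns: males and females at P21 and P56); red is higher in R237H and blue is lower, colors stop at 3 and -3, and grey was not tested. Families such as RGS proteins, phospholipase C and CaM kinases hold members of both colours, and the P56 columns are stronger than the P21 columns for most genes.

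Of 6 G protein alpha subunits, 4 rose and 1 fell in R237H rats of both sexes at P56. The inhibitory subunits Gnai2 and Gnai3, which hold adenylyl cyclase down, rose in all 4 comparisons, as did Gna15, a Gq-class subunit of blood-forming cells. Gnal, the olfactory subunit that stimulates adenylyl cyclase, fell at P56 in both sexes and in males at P21. Normalized counts of Gna15 (counts scaled to library size within a comparison) in males at P56 were 44.15, 77.72, 89.82 and 134.6 in WT and 205.1, 320.3, 400.7 and 196.8 in R237H rats. The lowest R237H rat was above the highest WT rat, but WT rats spread widely, and the change was 3.26-fold (log2 1.70 ± 0.35, FDR 0.00336). Gna15 changed 2.67-fold in females at P56 (FDR 0.00195), 2.18-fold in males at P21 (FDR 7.13e-05) and 2.75-fold in females at P21 (FDR 0.00433). Gnai2 was the most abundant of the genes that rose, at 170.4 ± 25.8 TPM (SD, n = 4) in WT and 364.7 ± 12.3 in R237H males at P56, and its count fold was 1.63 (FDR 0.000237). Gnai3 rose by 0.82 ± 0.11 in males and 0.59 ± 0.12 in females at P56.

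Gnal counts were 3041, 2471, 3258 and 3143 in WT and 1460, 1538, 1520 and 1381 in R237H males at P56, and 2805, 2660, 2930 and 3321 against 1313, 1495, 1702 and 1424 in females. Every R237H rat lay below every WT rat, with a 2.02-fold lower level in males (FDR 4.5e-05) and 1.97-fold in females (FDR 5.66e-05). At P21 the difference was smaller, 1798 to 1893 in WT and 1515 to 1573 in R237H males (FDR 0.00334), and 1982 to 2033 and 1440 to 1680 in females (FDR 0.0139). Gna13 rose at P56 (1.07 ± 0.12 in males and 0.86 ± 0.12 in females) and in males at P21 (0.54 ± 0.10). Gnat2, the transducin of cone photoreceptors, was measured below 1 TPM on average. Its log2 fold change was 1.96 ± 0.56 in males at P56 (FDR 0.0168, not passing), and 2.96 ± 0.37 in females, where it was listed through that comparison alone.

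RGS proteins, which speed the switching-off of G protein alpha subunits, went both ways. Those higher in R237H rats included Rgs1 and Rgs18, which are known from leukocytes, and Rgs16, Rgs17 and Rgs22. Those lower included Rgs7, a neuronal member of the family, Rgs13 and Rgs14, the last a protein of hippocampal pyramidal neurons. Of 8 members tested in males at P56, 5 rose and 1 fell, and of 10 in females at P56, 5 rose and 3 fell. Rgs18 counts in males at P56 were 5.758, 15.54, 19.58 and 5.428 in WT and 111.5, 137.9, 56.67 and 121.5 in R237H rats. In females they were 15.91, 6.709, 7.284 and 8.565 against 100.7, 134.6, 70.33 and 156.7. The groups were far apart in both sexes although few reads lay behind the WT values, with changes of 9.17-fold (FDR 0.000419) and 11.9-fold (FDR 3.57e-05). Rgs18 also rose in females at P21 (2.82-fold, FDR 0.00193), and its 2.08-fold difference in males at P21 did not pass the test (FDR 0.0211).

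Rgs1 rose 9.89-fold in males and 5.16-fold in females at P56 (FDR 0.000254 and 4.74e-05), and Rgs22 6.18-fold and 5.59-fold (FDR 1.26e-05 and 0.000158). Rgs16 rose in all 4 comparisons, by 1.06 ± 0.23 and 0.77 ± 0.18 at P56 and 0.65 ± 0.07 and 0.82 ± 0.16 at P21. Rgs17 rose at P56 (0.88 ± 0.18 in males, 0.71 ± 0.12 in females). These genes were therefore higher in R237H rats of both sexes at P56.

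Rgs13 counts in females at P56 were 90.18, 180, 95.73 and 99.57 in WT and 43.85, 58.55, 49.23 and 23.64 in R237H rats, a 2.65-fold lower level (FDR 0.00616). For the males at P56, where Rgs13 was listed through that comparison alone, WT rats had 119.8 to 324.7 and R237H rats 32.44 to 57.47. Neither sex showed overlap at P56, whereas both did at P21. Rgs7 fell by 0.81 ± 0.12 in males and 0.73 ± 0.10 in females at P56, and by 0.22 ± 0.05 in males at P21. Rgs14 fell in females at P56 (-0.84 ± 0.16, FDR 0.0023) and its value in males was -1.01 ± 0.17, with no test. Rgs4, a neuronal member, and Rgs6 passed no test where they were tested. Rgs4 values ran from -0.47 to 0.36, the former in females at P21 with no test, and Rgs6 values from -0.06 to 0.71, the latter in males at P21 with no test.

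Adenylyl cyclases split by isoform. Adcy1, the cyclase of neurons that calcium and calmodulin stimulate, was lower in R237H rats, and Adcy4, Adcy7 and Adcy10 were higher. Adcy7 is known from immune cells, Adcy4 is a relative of it that calmodulin does not stimulate, and Adcy10 is the soluble, bicarbonate-sensitive cyclase. Adcy7 counts in males at P56 were 125.7, 134.4, 103.6 and 105.3 in WT and 403.2, 550.7, 591.5 and 379.9 in R237H rats. Females had 129.4, 90.57, 124.9 and 118.8 against 340.1, 397.6, 436 and 371.2. R237H rats lay above every WT rat, by 4.1-fold in males (FDR 2.96e-05) and 3.33-fold in females (FDR 1.58e-05), and the groups were also separate at P21 (1.93-fold in males, FDR 0.00167, and 1.92-fold in females, FDR 0.0202).

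Adcy1 counts in males at P56 were 68572, 56905, 67359 and 74254 in WT and 38358, 39274, 41393 and 32746 in R237H rats. The counts of females were 66828, 64801, 62862 and 64966 against 38600, 42566, 34881 and 29409. The levels of R237H rats were 1.76-fold and 1.78-fold lower without overlap (FDR 0.000307 and 0.000226). At P21 Adcy1 was 1.28-fold lower in males (FDR 0.00102) and 1.39-fold lower in females (FDR 0.023). Adcy4 rose 2.9-fold in males and 3.1-fold in females at P56 (FDR 0.000189 and 2.01e-05). Adcy10 rose 4.69-fold and 4.74-fold at P56 (FDR 7.58e-05 and 0.000703), from a mean of 0.183 TPM in WT males to 1.11 TPM in R237H males, so that it stayed rare.

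Of the phosphodiesterases, which break down cyclic nucleotides, Pde1b and Pde2a were lower and Pde3b was higher in R237H rats at P56. Pde1b is activated by calcium and calmodulin, Pde2a is stimulated by cGMP, and Pde3b is inhibited by it. Pde1b counts in males at P56 were 7008, 5890, 6085 and 7381 in WT and 3392, 3270, 3917 and 3326 in R237H rats. In the females the counts were 6372, 5800, 7312 and 7094 against 2941, 3841, 3960 and 3107. The groups did not overlap in either sex (1.9-fold lower, FDR 8.58e-05, and 1.92-fold lower, FDR 0.000164), and at P21 the values were 1.11-fold and 1.15-fold lower without passing the test (FDR 0.0495 and 0.175).

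Pde3b counts were 739, 587.9, 912.1 and 731.7 in WT and 1267, 1366, 1381 and 1312 in R237H males at P56, a 1.79-fold rise (FDR 0.000719). It rose 1.36-fold in females at P56 (FDR 0.00743), 1.38-fold in males at P21 (FDR 0.00433) and 1.56-fold in females at P21 (FDR 0.00632), with no overlap in any of them. Pde2a fell by 0.67 ± 0.11 in males and 0.75 ± 0.12 in females at P56. The regulatory subunits of protein kinase A changed little. Prkar2a was higher in females at P56 (741.9 to 979.5 in WT and 1074 to 1601 in R237H rats, FDR 0.00848) and Prkar2b was lower there (2376 to 2860 and 1837 to 1962, FDR 0.00325). Both genes overlapped between the genotypes in males at P56 (0.43 ± 0.13 and -0.35 ± 0.18), and the untested values were 0.42 ± 0.08 for Prkar2a in males and -0.39 ± 0.10 for Prkar2b in females at P21.

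Phospholipase C isoforms also split. Plcb2 and Plcg2, which are known from immune cells, rose in all 4 comparisons, as did Plcd3. Plcb3 and Plcd1 rose in 3 of them, and Plcd4 was lower throughout. Plcb1, the isoform of forebrain neurons, was lower in males at P21 (-0.21 ± 0.05, FDR 0.00698), with -0.55 ± 0.19 in males at P56 (FDR 0.0402) and an untested -0.68 ± 0.10 in females at P56. Plcb2 counts in males at P56 were 96.93, 78.63, 95.58 and 119.4 in WT and 365.4, 330.1, 365.6 and 335.4 in R237H rats. In females at P56 they were 94.42, 104, 97.81 and 131.7 against 349.6, 313.7, 353.4 and 365.1. The R237H rats were close together at 3.58-fold and 3.23-fold the WT level (FDR 2.34e-05 and 1.52e-05), and rose 2.79-fold in males and 2.45-fold in females at P21 (FDR 1.31e-06 and 0.000711).

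Plcd4 counts in males at P56 were 1286, 891.5, 1610 and 1321 in WT and 817.3, 630.1, 771.9 and 662.2 in R237H rats. At P21 they were 957.1, 955.7, 1048 and 927.6 against 578.4, 601.9, 628.2 and 612.7 in males, and 1235, 1172 and 1218 against 694.8, 552.4, 676.5, 750.2 and 769.9 in females. By counts the gene fell by a like amount at both ages, 1.77-fold and 1.73-fold at P56 (FDR 0.0039 and 0.00276) and 1.61-fold and 1.75-fold at P21 (FDR 7.82e-06 and 0.000897). On the TPM scale the gene differed more at P21 (log2 -0.68 in males and -0.87 in females) than at P56 (-0.40 and -0.51). It and Ppp1r1b were the only members called lower in females at P21. Plcg2 rose 3.78-fold and 3.05-fold at P56 (FDR 0.000125 and 1.93e-05) and 2.25-fold and 1.99-fold at P21. Plcb3 rose 1.97-fold and 2.21-fold at P56, Plcd1 1.41-fold and 1.54-fold, and Plcd3 1.49-fold and 1.51-fold. For Plcd3 the P21 values were 1.84-fold and 1.69-fold.

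Of the protein kinase C genes, Prkcd, which encodes a form that diacylglycerol activates without calcium, rose at both ages in both sexes. Prkce, another form that needs no calcium, was lower at P56. Prkcd counts in males at P56 were 409.8, 544.9, 454.9 and 426.6 in WT and 1626, 2044, 2166 and 1939 in R237H rats. For females they were 553.8, 380.2, 467.2 and 520.3 against 1962, 1638, 1904 and 1754. The lowest R237H rat had more than any WT rat by a wide margin, with changes of 4.23-fold (FDR 2.92e-06) and 3.78-fold (FDR 2.1e-06). At P21 the change was 1.98-fold in males (384.3 to 453.9 against 725.9 to 976.2, FDR 1.01e-05) and 1.67-fold in females (575.9 to 623 against 788.6 to 1110, FDR 0.00284).

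Prkce counts in females at P56 were 11284, 14150, 15414 and 11794 in WT and 9404, 8849, 9790 and 6411 in R237H rats (1.53-fold lower, FDR 0.00753), and the groups overlapped at P21 in both sexes. The untested value in males at P56 was -0.76 ± 0.12, the same direction as in females.

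The calcium release channels of the endoplasmic reticulum differed in direction. Itpr2, the inositol trisphosphate receptor that predominates in astrocytes, rose in all 4 comparisons. Itpr1, the receptor that predominates in neurons, and the ryanodine receptors Ryr1 and Ryr2 fell at P56. Itpr2 counts in males at P56 were 1920, 2021, 1854 and 1521 in WT and 5409, 5121, 4374 and 5198 in R237H rats. In females they were 1624, 1956, 1721 and 1662 against 4946, 5090, 4101 and 5505. R237H rats were at 2.75-fold and 2.82-fold the WT level without overlap (FDR 8.07e-06 and 3.45e-06). At P21 the change was 1.68-fold in males (2759 to 2977 against 4418 to 5679, FDR 1.28e-05) and 1.79-fold in females (2440 to 3095 against 3925 to 5819, FDR 0.00207).

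Ryr1, best known from skeletal muscle, had counts of 1760, 1788, 2343 and 1761 in WT and 935.8, 845, 1142 and 626.2 in R237H males at P56. In females the counts were 1927, 2296, 2106 and 1971 against 1052, 957.8, 894.9 and 493.7. It was 2.15-fold and 2.44-fold lower (FDR 0.000815 and 0.000544), and at P21 the groups overlapped (-0.11 ± 0.14 and -0.19 ± 0.13). Ryr2, the main ryanodine receptor of heart and forebrain, fell 1.83-fold and 1.77-fold at P56 (FDR 0.00106 and 0.000237) and 1.21-fold in males at P21. Itpr1 fell 1.46-fold and 1.45-fold at P56 (FDR 0.00276 and 0.000572). On the TPM scale its log2 difference was only -0.16 in males and -0.24 in females, and in males the genotypes overlapped (62.53 to 101.1 TPM in WT and 62.22 to 81.87 in R237H rats).

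The 4 voltage-gated calcium channel subunits with a symbol were lower in R237H rats at P56, and other genes of that family were not seen. These were the pore-forming subunits Cacna1d of an L-type and Cacna1h of a T-type channel, the cytoplasmic subunit Cacnb3 and the extracellular subunit Cacna2d3. All 4 passed the test in females at P56. Cacnb3 counts there were 7662, 7291, 10409 and 7542 in WT and 4082, 4847, 5954 and 4199 in R237H rats (1.72-fold lower, FDR 0.00202). Cacna1d counts were 3597, 4371, 3891 and 3760 against 2737, 2530, 2740 and 2185 (1.53-fold lower, FDR 0.000795). Neither gene overlapped between the genotypes. Cacna1h fell 1.77-fold (FDR 0.00254) and Cacna2d3 1.46-fold (FDR 0.00057). Cacna2d3 also fell in males at P56 (1.53-fold, FDR 0.000437), and the other 3, listed through that comparison alone, had values of -0.75 to -0.98. At P21 none of those tested passed, and the untested value of Cacna2d3 in males was -0.35 ± 0.05.

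Plasma membrane calcium pumps of neurons, Atp2b2 and Atp2b3, were lower at P56. Atp2b2 counts in males at P56 were 19772, 21363, 19714 and 23600 in WT and 12000, 12641, 12830 and 10663 in R237H rats. Females had 19043, 20657, 21674 and 18762 against 12927, 12684, 12853 and 10201. There was no overlap, and the levels were 1.75-fold and 1.65-fold lower (FDR 0.000153 and 0.000262). Atp2b3 fell 1.74-fold and 1.62-fold at P56, and 1.19-fold in males at P21 (FDR 0.00413).

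The endoplasmic reticulum pumps were less abundant. Atp2a3, a pump of blood and epithelial cells, had overlapping counts in males at P56 (245.3 to 452.6 in WT and 225 to 287.4 in R237H rats, FDR 0.0772), and its value in males at P21, where it was listed alone, was 0.53 ± 0.09. Atp2a1, the pump of fast skeletal muscle, was measured below 1 TPM on average, with a 2-fold lower level in males at P56 (FDR 0.0128) and an untested -1.67 ± 0.27 in females at P56.

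**Figure D2:**
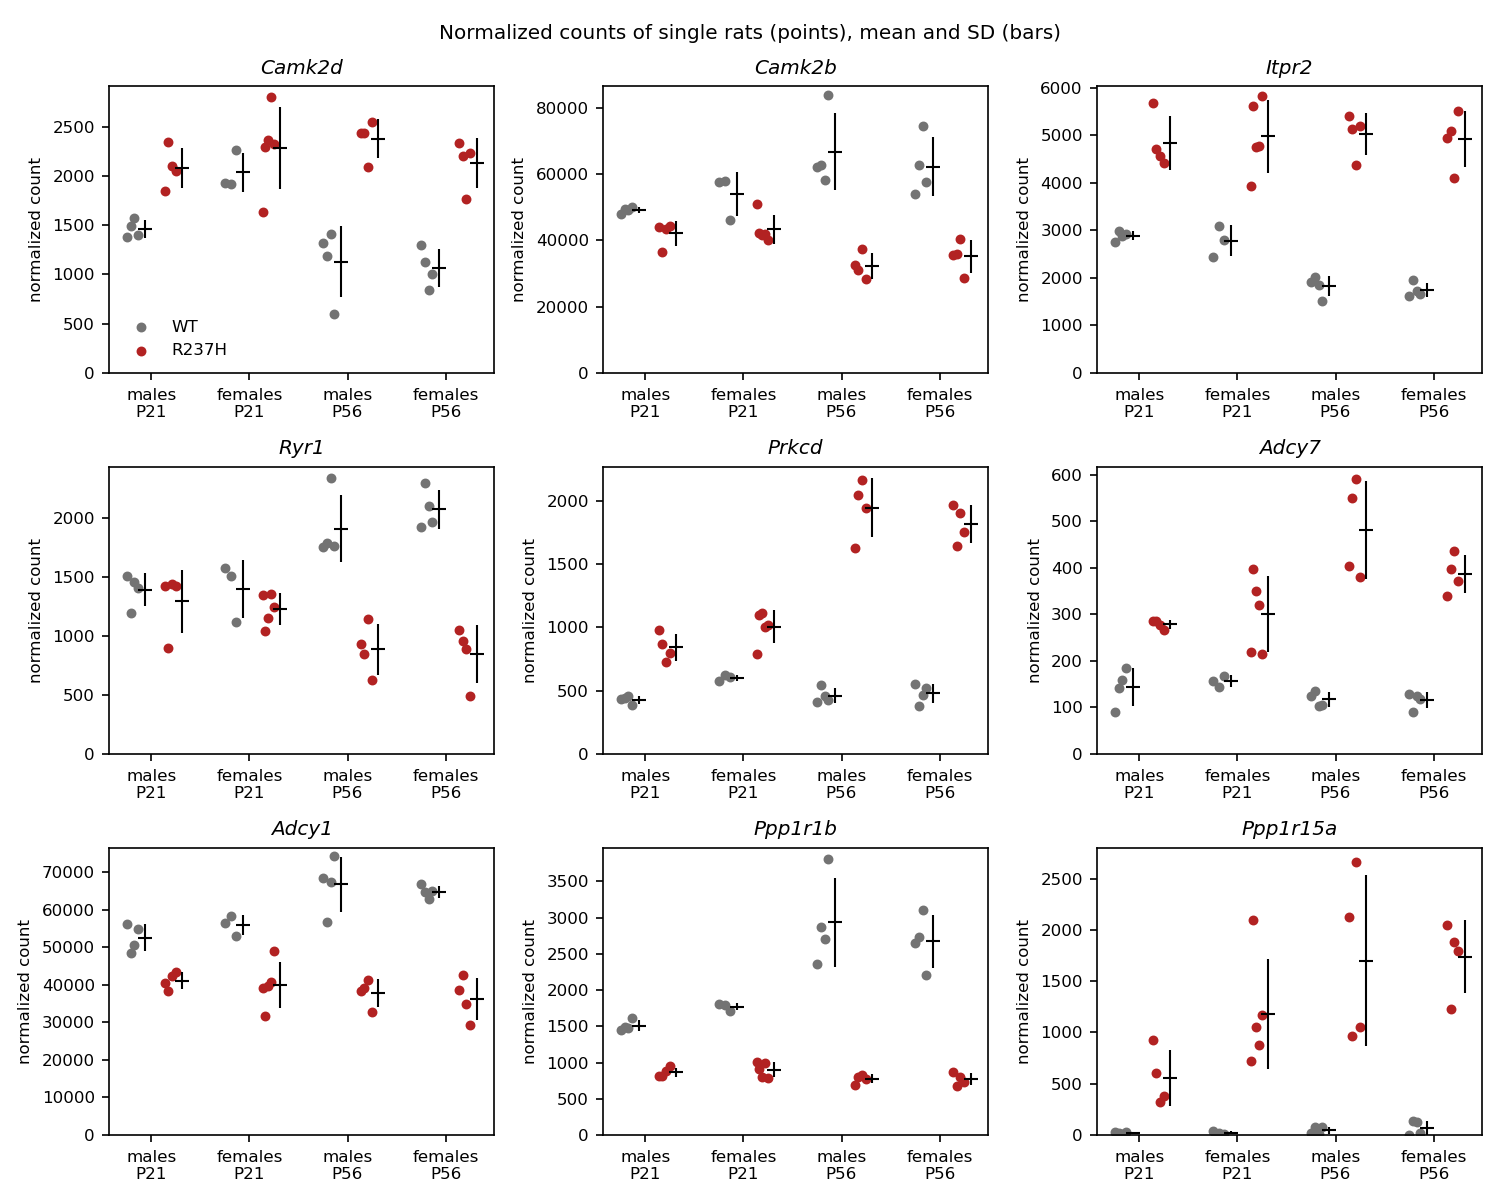
Normalized counts of 9 members in each rat (points; linear axis from 0), by genotype, sex and age, with the group mean and SD as bars. Among males at P56, WT and R237H rats do not overlap for Itpr2 (1521 to 2021 and 4374 to 5409), Prkcd (409.8 to 544.9 and 1626 to 2166) or Camk2b (58106 to 83784 and 28350 to 37507).

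Calm3, which encodes the calcium sensor calmodulin, was lower at P56. Its counts in females at P56 were 33519, 36145, 37252 and 31431 in WT and 26116, 20394, 22390 and 17413 in R237H rats (1.6-fold lower, FDR 0.0015). The groups did not overlap at P56 in either sex. In males at P56, the comparison through which it was listed, the untested value was -1.03 ± 0.14. At P21 it did not pass the test (-0.10 ± 0.08 in males and -0.07 ± 0.09 in females).

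CaM kinase genes showed 1 riser and 4 that fell. Camk2d, the delta subunit of CaM kinase II, which is known from the heart and is also made outside neurons, was higher in R237H rats. Camk2b, the beta subunit of forebrain neurons, Camk2g, the gamma subunit, and the upstream kinases Camkk1 and Camkk2 were lower. RefSeq promoters (250 bases before to 50 after the transcription start, build GRCr8) were found for 49 of the 66 members. Those of Camk2d (chr2:217698301-217698600, plus strand) and Camk2b (chr14:85147895-85148194, minus strand) are printed because these subunits of the same kinase moved in opposite directions.
Camk2d: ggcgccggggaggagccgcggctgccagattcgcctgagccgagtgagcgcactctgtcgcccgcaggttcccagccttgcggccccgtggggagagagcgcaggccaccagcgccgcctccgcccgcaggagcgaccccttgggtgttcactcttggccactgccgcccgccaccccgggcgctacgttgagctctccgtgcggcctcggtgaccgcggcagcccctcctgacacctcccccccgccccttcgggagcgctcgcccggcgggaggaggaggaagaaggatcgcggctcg
Camk2b: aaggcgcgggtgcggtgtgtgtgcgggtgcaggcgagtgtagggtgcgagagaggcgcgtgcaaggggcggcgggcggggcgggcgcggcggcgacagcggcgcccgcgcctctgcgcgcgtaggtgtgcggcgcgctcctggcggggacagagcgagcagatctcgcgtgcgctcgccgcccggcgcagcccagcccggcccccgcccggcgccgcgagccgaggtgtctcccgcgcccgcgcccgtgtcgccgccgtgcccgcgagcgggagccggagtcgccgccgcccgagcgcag
Both windows are rich in G and C, at 74.7% with 36 CpG dinucleotides for Camk2d and 81.3% with 59 for Camk2b, while the median was 66.5% and 23 over the 49 members and 51.7% and 7 over all 33469 promoters. Neither held any of the 5 motifs searched on both strands: the cAMP response element (CRE) TGACGTCA, its short form TGACG, AP-1 TGANTCA, STAT TTCNNNGAA and NF-kappaB.

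Camk2d counts in males at P56 were 1316, 1186, 1414 and 603.6 in WT and 2440, 2437, 2095 and 2548 in R237H rats. Females at P56 had 1299, 1129, 841.8 and 1002 against 2333, 2200, 1766 and 2236. WT male 4 was low, but the genotypes did not overlap in either sex, with 2.11-fold (FDR 0.00348) and 2-fold (FDR 0.000327) higher levels. At P21 the males had 1379, 1490, 1573 and 1398 against 1851, 2345, 2098 and 2046, a 1.43-fold rise (FDR 0.0004). The females at P21 overlapped, at 1921 to 2261 in WT and 1637 to 2803 in R237H rats (0.17 ± 0.15, FDR 0.565).

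Camk2b counts in males at P56 were 62162, 62661, 58106 and 83784 in WT and 32649, 30931, 37507 and 28350 in R237H rats. The counts of females were 53909, 62663, 74457 and 57735 against 35599, 35995, 40557 and 28599. The levels were 2.06-fold (FDR 0.000238) and 1.77-fold (FDR 0.000687) lower without overlap. At P21 the males had 48039 to 49975 against 36599 to 44295 (FDR 0.0183) and the females 46248 to 58045 against 40099 to 51039 (FDR 0.0856), so neither passed the threshold.

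Camkk1, which activates other CaM kinases, had counts of 19323, 15923, 15082 and 20162 in WT and 9558, 8373, 9041 and 7345 in R237H males at P56. In the females the counts were 18423, 16968, 19091 and 17846 against 7451, 9866, 11315 and 7606. The gene was 2.05-fold and 2-fold lower (FDR 0.000145 and 0.000229), and 1.25-fold lower in males at P21 (8568 to 9511 against 7039 to 7434, FDR 0.000337).

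Camkk2, which also acts on AMP-activated kinase, had 5225, 6060, 5117 and 6796 against 3426, 3441, 3491 and 3215 in males at P56. It was 1.71-fold lower there (FDR 0.000279) and 1.79-fold lower in females at P56 (FDR 0.000174). Camk2g had 8263, 7777, 7590 and 10209 against 4881, 4928, 5857 and 5131 in males at P56. That gene fell 1.63-fold and 1.75-fold at P56 (FDR 0.000899 and 5.7e-05) and 1.21-fold in males at P21 (FDR 0.00615), and its groups were separate in all 4 comparisons.

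The catalytic subunit of calcineurin, the calcium-dependent phosphatase, and the inhibitors of protein phosphatase 1 were lower. Ppp3cb counts in males at P56 were 34229, 30467, 34357 and 28918 in WT and 21385, 21817, 20805 and 20952 in R237H rats. It fell 1.51-fold there and 1.53-fold in females at P56 (FDR 0.00054 and 0.000656). Ppp1r1b encodes DARPP-32, which inhibits protein phosphatase 1 when protein kinase A has phosphorylated it, and Ppp1r1a encodes a related inhibitor. Ppp1r1b counts in males at P56 were 2353, 2863, 2707 and 3803 in WT and 686.9, 803.7, 832.6 and 778.5 in R237H rats. For females they were 2655, 2725, 3097 and 2213 against 872.2, 681.6, 806.1 and 729.2. The rats were well separated, at 3.78-fold and 3.46-fold lower levels (FDR 8.34e-06 and 2.48e-06).

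At P21 Ppp1r1b counts were 1445, 1486, 1481 and 1621 against 819.6, 820.1, 885.4 and 949.5 in males (1.74-fold lower, FDR 3.99e-06). They were 1802, 1794 and 1717 against 1004, 917.4, 793.6, 991.1 and 788.2 in females (1.97-fold lower, FDR 0.000154). Ppp1r1b thus fell in all 4 comparisons. Ppp1r1a had 2856, 3485, 3137 and 4352 against 1346, 1426, 1502 and 1425 in males at P56, a 2.43-fold lower level (FDR 4.31e-05), and fell 1.97-fold in females at P56 (FDR 4.6e-05). At P21 its values were -0.14 ± 0.07 and -0.27 ± 0.09, and neither passed the test.

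The names that only share a prefix included the gene with the largest change. Ppp1r15a encodes a stress-induced subunit that directs protein phosphatase 1 to a translation initiation factor. Its promoter (chr1:105139547-105139846, minus strand) is printed because it was the only member promoter that held the full CRE, with motif matches in capitals.
Ppp1r15a: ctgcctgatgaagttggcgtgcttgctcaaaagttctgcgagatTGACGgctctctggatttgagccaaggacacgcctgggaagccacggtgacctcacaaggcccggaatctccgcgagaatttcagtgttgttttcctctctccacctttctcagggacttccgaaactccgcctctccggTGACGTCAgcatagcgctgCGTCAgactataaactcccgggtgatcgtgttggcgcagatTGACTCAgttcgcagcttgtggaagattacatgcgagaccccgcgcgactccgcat
The window held the CRE, an AP-1 match and 4 matches of the short form over both strands, 2 within the CRE and 2 outside it, at 55.7% G and C with 23 CpG. The CRE was found in 1 of 49 member promoters and 1.83% of all promoters. The short form was found in 7 members (Adcy7, Camkk1, Plcb3, Ppp1r15a, Ppp3cb, Rgs1 and Rgs4; 14.3%) and 21.2% of all, and AP-1 in 2 members (Ppp1r15a and Rgs17; 4.08%) and 7.33% of all. STAT was matched in Atp2a1 and Plcb1 (8.87% of all promoters) and NF-kappaB in Rgs13 and Rgs14 (1.53% of all). A match describes the letters of the window and is not evidence of binding.

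Ppp1r15a counts in males at P56 were 16.32, 74.97, 12.67 and 80.33 in WT and 2121, 965.9, 2665 and 1052 in R237H rats. In females at P56 they were 4.244, 135.3, 125.9 and 21.41 against 2048, 1233, 1884 and 1794. WT rats varied widely at these low counts but stayed far below every R237H rat, with changes of 36.6-fold (FDR 0.000112) and 24.3-fold (FDR 0.000342). At P21 the males had 31.69, 20.84, 13.62 and 30.64 against 923.4, 600, 317.1 and 379, a 23-fold rise (FDR 2.41e-06). The P21 females had 42.24, 17.11 and 11.96 against 725.5, 2092, 1050, 874.9 and 1172, a 48.9-fold rise (FDR 4.78e-05).

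Ppp1r18, an actin-binding subunit, rose 4.43-fold and 4.25-fold at P56 and 2.79-fold in each sex at P21 (FDR 1.19e-06, 1.17e-06, 1.59e-07 and 0.000181). Ppp1r12b, a subunit of myosin phosphatase, passed no test and had values of -0.36 (females at P21, untested) to -0.09. The pseudogene Ppp1r14b-ps2, which may share reads with its parent gene, passed none either (0.49 to 1.37, the latter in females at P21 and untested).

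Itpripl2, which resembles a protein that interacts with inositol trisphosphate receptors, had 179.5, 201.1, 233.8 and 171.5 in WT and 1124, 969.1, 854.1 and 1068 in R237H males at P56. It rose 5.11-fold there and 4.35-fold in females at P56 (FDR 2.54e-06 and 2.14e-06), and 2.11-fold and 1.93-fold at P21 (FDR 1.8e-05 and 0.00249). Itprid2, which anchors these receptors to actin, rose in all 4 comparisons (0.47 to 1.02). Itpripl1 in males at P56 had 105.6, 696.7, 89.82 and 62.96 in WT and 253.9, 321.1, 267.4 and 391.8 in R237H rats. The high WT value belonged to the rat with 6196 TPM of choroid plexus markers, and the WT female with 462.7 counts at P21, against 108.2 and 143.9 in the others, was the rat with 3488 TPM. The untested value of Itpripl1 in females at P56 was 1.39 ± 0.22.

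Prkab1, a subunit of AMP-activated kinase, had 572, 555.9, 454.9 and 610.1 in WT and 996.5, 1058, 1114 and 1174 in R237H males at P56. It rose 1.98-fold there and 1.78-fold in females at P56 (FDR 0.000147 and 6.24e-05), and 1.3-fold in males at P21 (FDR 0.00132). Cacng3, an auxiliary subunit of AMPA receptors, overlapped in females at P56 (3836 to 4689 in WT and 2712 to 4018 in R237H rats, FDR 0.0218) and had an untested -0.86 ± 0.14 in males at P56.

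Genes that rose and genes that fell differed in abundance in WT rats. In males at P56, the 26 members called higher had a median WT level of 5.32 TPM, and 25 of them were under 30 TPM, a level chosen after the values were seen, with Gnai2 the exception. The 29 members called lower, untested ones included, had a median of 83.1 TPM, and 24 were at 30 TPM or more. Over all genes the same split was present, with medians of 4.08 TPM for the 2531 genes called higher (89.5% under 30 TPM) and 44.0 TPM for the 1677 called lower (38.3% under 30 TPM). The member medians in females at P56 were 5.46 and 77.7 TPM, and those of all genes 3.96 and 37.8 TPM. In males at P21 they were 7.64 and 78.4 TPM against 4.85 and 42.4 TPM, and in females at P21 5.76 and 29 TPM against 3.35 and 22.02 TPM.

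**Figure D3:**
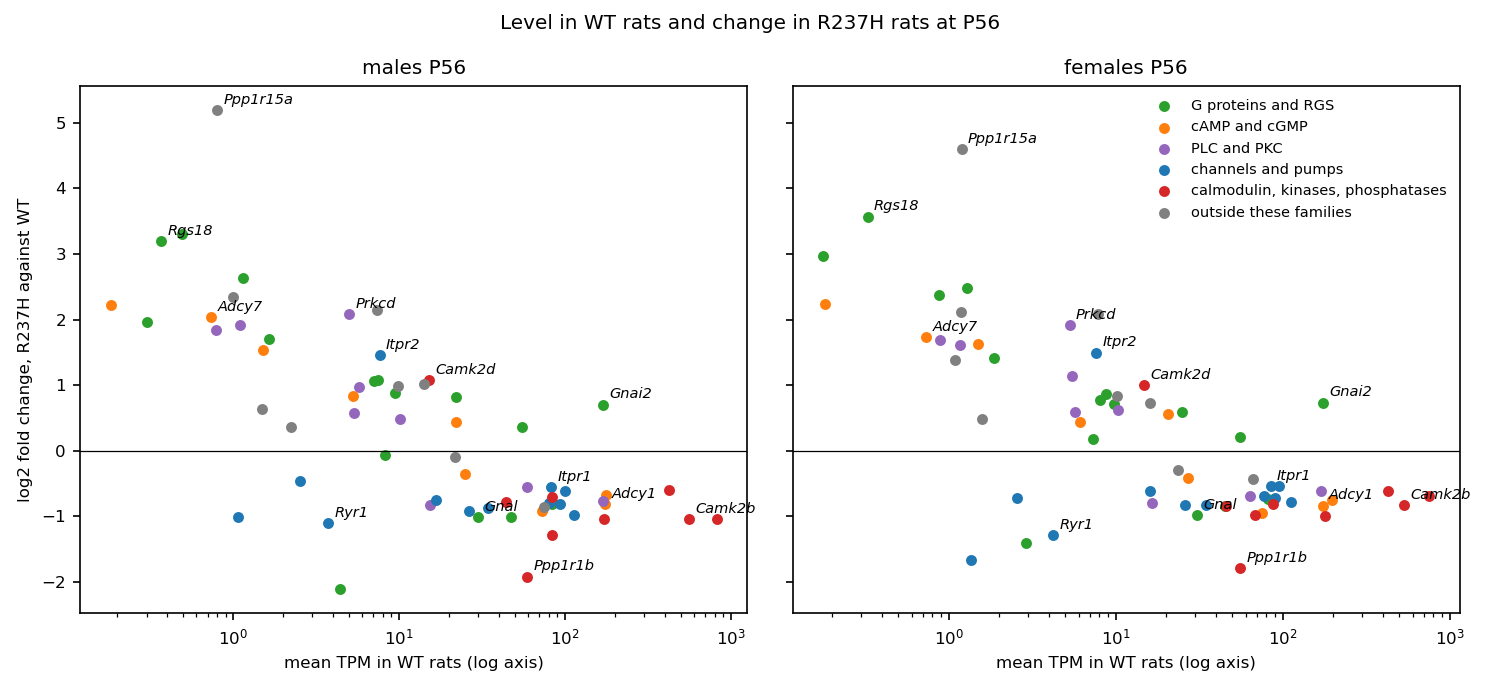
Mean WT level of each member reported (TPM, log axis) against its log2 fold change at P56, for males and females in separate panels, colored by pathway step. Members called above 0 lie under 30 TPM, with Gnai2 (170.4 TPM in WT males) the exception. Abundant members such as Camk2b (562.2 TPM in WT males) lie below 0.

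Ratios between related genes of a family also differed between the genotypes. Pairs of a gene that rose and one that fell or was lower were chosen after these values were seen, so the ratios of their TPM are a description with no test. The ratio of Camk2d to Camk2b was 0.0286 ± 0.012 (SD, n = 4) in WT and 0.12 ± 0.0229 in R237H males at P56, and 0.0284 ± 0.00847 against 0.1 ± 0.0232 in females. In R237H males Camk2d still had 41.8 TPM against 353.1 TPM of Camk2b. The ratio of Itpr2 to Itpr1 was 0.093 ± 0.00724 against 0.345 ± 0.0526 in males at P56 and 0.091 ± 0.0129 against 0.331 ± 0.0515 in females. Camk2b and Itpr1 stayed the more abundant of these pairs in all rats.

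Other pairs moved likewise in males at P56: Adcy7 to Adcy1 was 0.00419 against 0.0297, Plcb3 to Plcb1 0.103 against 0.274, Pde3b to Pde1b 0.0752 against 0.254, and Gnai2 to Gnal 5.69 against 18.3. In the last pair the more abundant gene in WT rats, Gnai2, was the one that rose. At P21 the ratios of R237H rats were also higher, with Itpr2 to Itpr1 at 0.189 ± 0.00786 against 0.371 ± 0.0486 in males and 0.181 ± 0.0373 (n = 3) against 0.367 ± 0.0451 (n = 5) in females. Genotypes overlapped for Camk2d to Camk2b (0.0529 to 0.0777 against 0.0512 to 0.107) and for Plcb3 to Plcb1 (0.0689 to 0.0981 against 0.0886 to 0.232), both in females at P21.

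**Figure D4:**
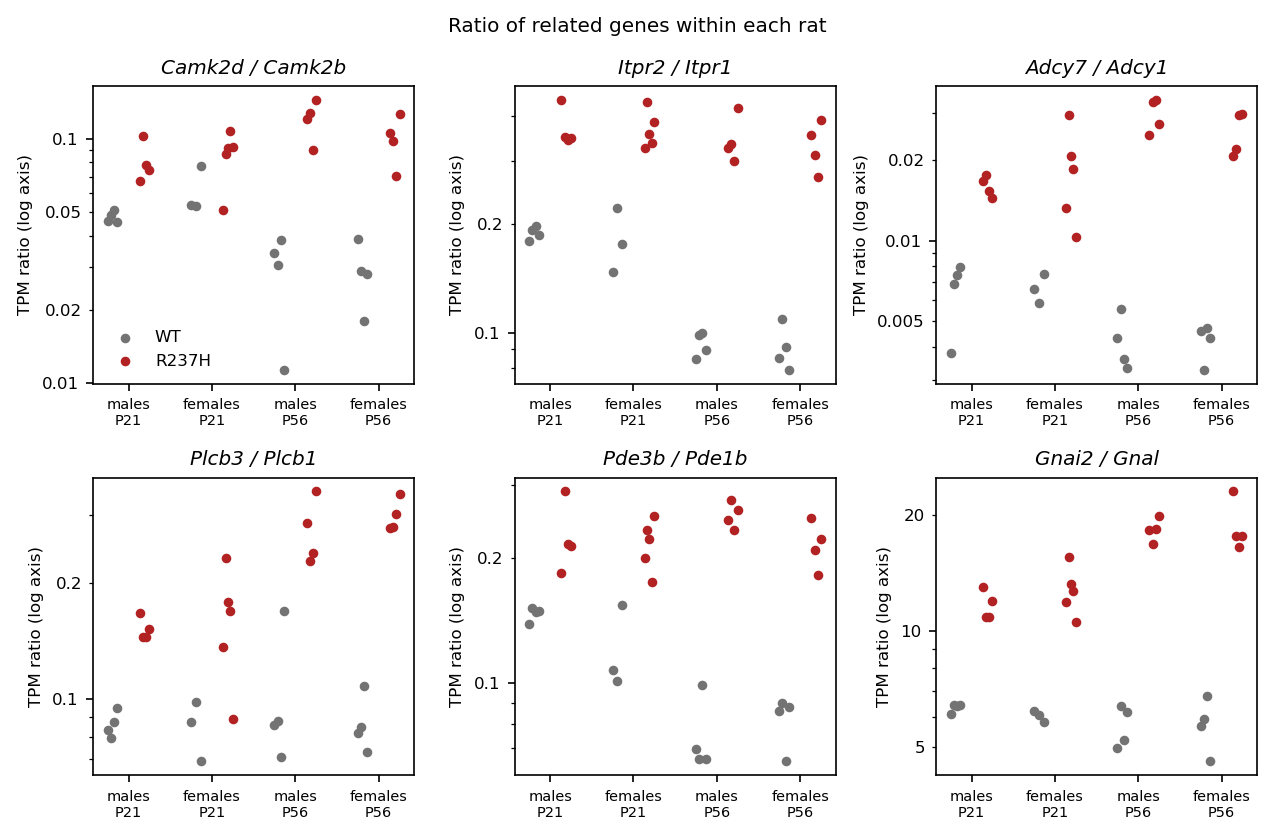
Ratio of TPM between pairs of isoforms in each rat (log axis), by genotype, sex and age. R237H rats lie above WT rats in each panel, except that they overlap for Camk2d to Camk2b and for Plcb3 to Plcb1 in females at P21.

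By the log2 fold change of counts, differences between the genotypes were larger in size at P56 than at P21 for 59 members in males and 56 in females. The share over all genes was not taken. On the TPM scale in females, Ppp1r1b differed more at P56 (-1.48 against -1.04 at P21), but Ppp3cb did not (-0.28 against -0.31). In males Ppp1r1b also differed more at P56 on that scale (-1.49 against -0.79). Ppp3cb (-0.18 against -0.31) and Itpr1 (-0.16 against -0.27) differed less at P56 than at P21 in males. The change with age was not tested on the TPM scale. The change in the genotype difference between the ages was tested as the interaction of age and genotype among the 16 rats of a sex, for members listed through the other sex. Rats of different ages shared no number in their sample titles, so age cannot be told apart from that grouping. In males, 21 of 48 members were called (43.8%, against 10.1% of all genes and 33.1% of listed genes), 9 with a more positive difference at P56 (18.8%, against 5.81% and 23.5%) and 12 with a more negative one (25%, against 4.31% and 9.56%). In females 7 of 56 were called (12.5%, against 2.15% and 10.1%), 3 more positive (5.36%, against 1.49% and 6.98%) and 4 more negative (7.14%, against 0.658% and 3.07%). Members with a more negative difference were more frequent than among listed genes in both sexes, which was not tested.

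More positive in both sexes were Prkcd (log2 1.08 ± 0.16 in males, FDR 0.000296, and 1.19 ± 0.17 in females, FDR 0.000942) and Itpripl2 (1.25 ± 0.18, FDR 0.000225, and 1.18 ± 0.20, FDR 0.00316). More negative in both sexes were Pde1b (-0.80 ± 0.12 and -0.73 ± 0.15), Ppp1r1a (-1.16 ± 0.15 and -0.71 ± 0.13), Ppp1r1b (-1.15 ± 0.17 and -0.81 ± 0.16) and Rgs7 (-0.61 ± 0.13 and -0.58 ± 0.12). For these the difference between the genotypes was further from 0 at P56 than at P21. In males those that also passed included Itpr2 (0.69 ± 0.13), Adcy4 (1.08 ± 0.23), Adcy10 (1.68 ± 0.29), Rgs22 (1.58 ± 0.29), Prkab1 (0.59 ± 0.13), Itprid2 (0.53 ± 0.12) and Ppp1r18 (0.64 ± 0.14), and also Camk2b (-0.84 ± 0.16), Camkk1, Camkk2, Gnal, Atp2b2, Atp2b3 and Ryr1, the last 6 between -1.02 and -0.57. In females it also passed for Rgs18 (2.08 ± 0.43, FDR 0.00848). The 4 more negative calls in females became 0 without the rats with choroid plexus markers and 2 with RLE factors, another scaling of library size. Whether these interactions differed between the sexes was not tested.

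**Figure D5:**
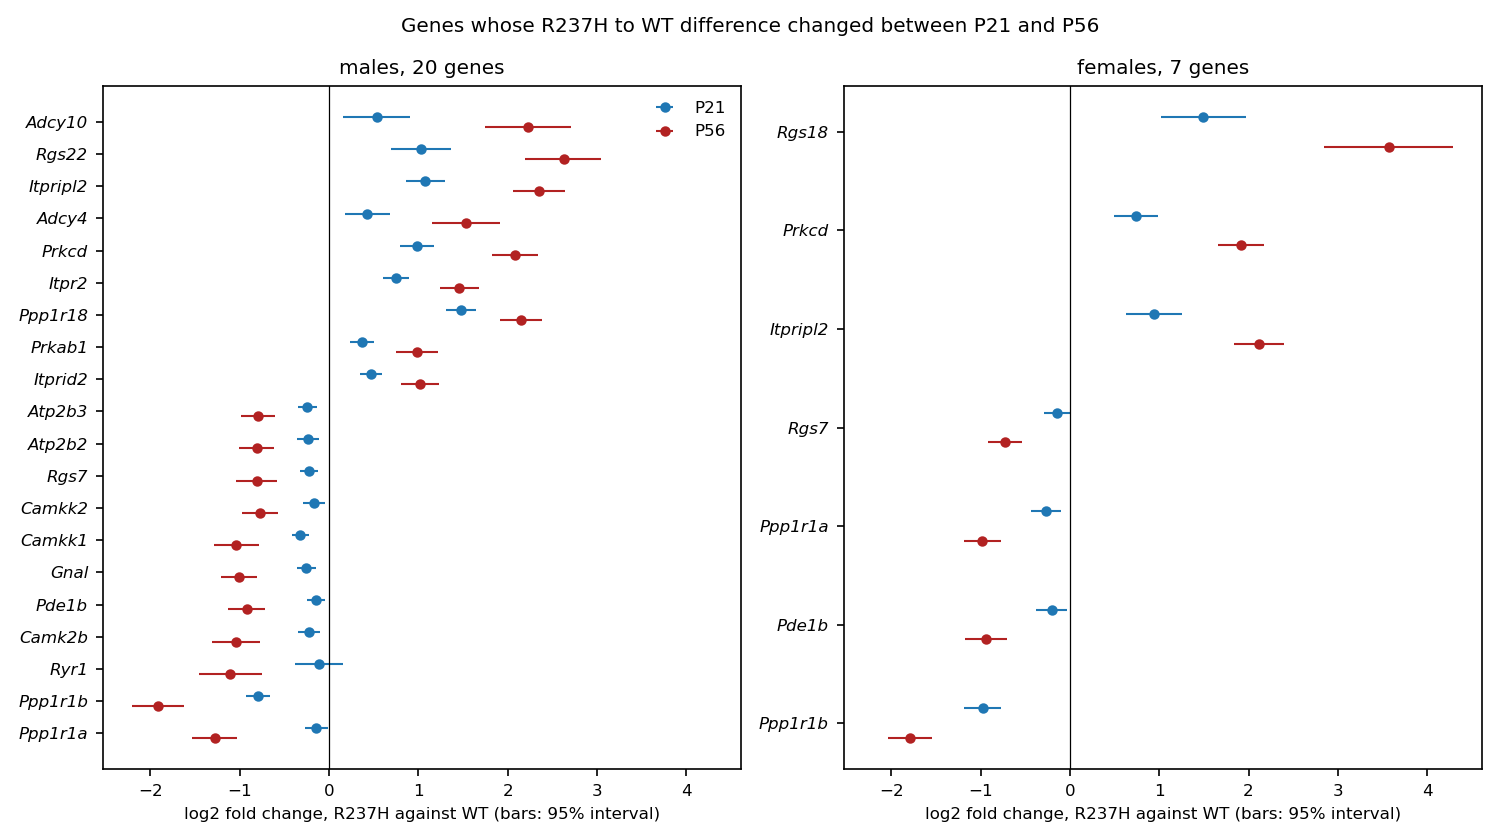
Log2 fold change of R237H against WT at P21 and at P56 for members reported whose genotype difference changed with age, males and females in separate panels, with 95% intervals as bars. Prkcd and Itpripl2 move further above 0 and Ppp1r1a, Ppp1r1b and Pde1b further below 0 at P56 in both sexes, although no female call below 0 passed without the rats with choroid plexus markers.

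The interaction of sex and genotype, tested for members listed through the other age, called 0 of 43 members at P56 and 0 of 48 at P21, by edgeR's quasi-likelihood test and by its likelihood-ratio test. At an unadjusted p under 0.05 there were 1 and 0. Of all genes 0% were called at either age.

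In WT rats, levels at P56 were compared with those at P21, a measure that did not choose the genes. Here too age cannot be told apart from the grouping by the number in the sample titles. Camkk1 was higher at P56 in males (0.84 ± 0.11, FDR 0.00208) and females (0.90 ± 0.08, FDR 0.00147), as was Pde1b (0.70 ± 0.09 in males, FDR 0.00233, and 0.63 ± 0.10 in females, FDR 0.00826). Itpr2 was lower in both sexes (-0.78 ± 0.10 and -0.69 ± 0.11). Gnal (0.57 ± 0.10) and Ppp1r1b (0.84 ± 0.14) were higher in males, and Camk2d was lower in females (-0.95 ± 0.14, FDR 0.00826). That made 5 of 47 members in males (10.6%, against 2.44% of all genes and 4.51% of listed genes), 4 higher (against 0.741% and 1.49%) and 1 lower (against 1.7% and 3.02%). In females it made 4 of 56 (7.14%, against 1.55% and 2.27%), 2 higher (against 0.415% and 1.1%) and 2 lower (against 1.14% and 1.17%). Without the rats with choroid plexus markers 0 members passed in males, and in females 1 was higher and 0 were lower.

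The neighbouring genes of these pathways came from lists of which only a part had symbols. Of the EF-hand calcium sensors and buffers, 10 of 30 had one. S100a4, S100a6, S100a10 and S100a11, small calcium-binding proteins of glia and leukocytes, rose in all 4 comparisons, S100a4 by 4.09 ± 0.22 in males and 3.84 ± 0.18 in females at P56. Hpcal4, Kcnip2, Cabp1 and Cabp7, sensors of neurons, fell at P56 in both sexes (-1.13 to -0.73). S100b, an astrocyte protein, fell in males and females at P21 (-0.44 ± 0.06 and -0.47 ± 0.09).

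Pcp4, a calmodulin-binding protein of neurons and the only 1 of 4 in its list with a symbol, fell by 0.95 ± 0.11 and 0.84 ± 0.09 at P56. Of the G protein beta and gamma subunits with their kinases and arrestins, 4 of 21 had a symbol, and Gnb4 and Gng12 rose while Gnb5, the partner of Rgs7, fell at P56. Of calcium exchangers and store-operated entry genes (6 of 16), none of those tested rose at P56. In females at P56 4 fell, namely Slc8a2, Slc24a3, Stim2 and Orai2, and 2 of these, Slc24a3 and Orai2, fell in males. Mcub, a subunit of the mitochondrial calcium uniporter, had an untested 2.42 ± 0.43 in males at P56. In males at P21 Orai1, a store-operated channel, rose (1.29 ± 0.23, FDR 0.00118) and Stim2 fell (-0.19 ± 0.05). Of cGMP and cAMP effectors and anchors (5 of 15), Akap12 rose and Rapgef4 fell at P56 in both sexes. Akap13 also rose in females at P56, and Gucy1a1 and Gucy1b1 fell. Of the diacylglycerol kinases (2 of 9), Dgkb fell in males and Dgkz in females at P56. Of activity-regulated and CREB-responsive genes (4 of 17), Fos rose in 3 comparisons (1.18 ± 0.24 in females at P56, 1.02 ± 0.09 in males and 1.61 ± 0.31 in females at P21), and Junb in males at P21. Atf3 rose by 5.28 ± 0.41 and 4.40 ± 0.24 at P56, and by 4.66 ± 0.18 and 5.32 ± 0.27 at P21.

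By TMM scaling the median gene differed by -0.03 to -0.01 between the genotypes, but on the TPM scale it was higher in R237H rats by 0.40 in males and 0.26 in females at P56 (log2), and by -0.01 and -0.07 at P21. All 172 values of members with an FDR under 0.01, untested ones included, had the same sign on both scales. Of the tested members called lower at P56, the log2 difference was over 1.5 times smaller on the TPM scale for 18 of 20 in males and 21 of 28 in females, and for none at P21. Examples in males at P56 were Ppp3cb (-0.18 in TPM against -0.59 by TMM) and Cacna2d3 (-0.20 against -0.61). Rises could be larger on the TPM scale, as for Camk2d in males at P56 (1.54 in TPM against 1.07 by TMM). The number of such members was not taken. Without the 6 rats with choroid plexus markers, the P56 males had 22 members that rose and 19 that fell, the P56 females 22 and 26, and the P21 males 21 and 9, but only 6 members rose in P21 females in place of 16.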

How the data were processed

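Hippocampal RNA of 32 rats was sequenced from TruSeq Stranded mRNA libraries after TRIzol extraction. The authors called bases with bcl2fastq 2.20.0.422, used Skewer for trimming, STAR for alignment and RSEM for quantification; the genome build and annotation are not given in the sources used here. They deposited expected counts per gene, unscaled (reads shared between genes are divided, so 5.68% of 762304 values were not whole), and TPM values per gene, scaled to length and depth by RSEM. How RSEM divides reads between related genes could move counts of near-identical copies.

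Differences were tested on the counts, after rounding, by edgeR 4.0.16 under R 4.3.3 (quasi-likelihood F-test, default filter on low counts, TMM normalization), R237H against WT within sex and age. FDR is the Benjamini-Hochberg value over all genes tested, with a threshold of 0.01. Normalized counts are counts divided by TMM-scaled library sizes within a comparison. Tables and figures were made with Python 3.11.15, pandas 2.3.3, numpy 2.4.6 and matplotlib 3.10.9. The procedure was also run on simulated data in which few genes changed, evenly up and down. That simulation could not show how a shift across many genes affects the scaling.

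Gene symbols came from the study's 4 lists of differential expression, whose fold changes, p-values and FDR were not used. Of the 66 members, 26 stood in exactly 1 list, 17 in 2, 8 in 3 and 15 in 4. A test is given only where a list from other rats held the gene. The members, the gene lists and the rules were chosen with earlier results of these data known. The genes described rat by rat were the CaM kinases and, in each other family, the members with the highest and the lowest mean of the 4 log2 fold changes among those with a mean of at least 1 TPM. Some members are counted among the 66 but not reported here individually.

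Each rat is a separate animal. Interactions of age or sex with genotype were fitted to 16 rats. As alternatives, RLE factors, other filters, DESeq2 1.42.0, the likelihood-ratio test, an FDR under 0.05, both sexes with sex as a covariate, all rats in one model, a replicate block, each rat left out, and log2(TPM + 0.1) were run. Leaving out 6 rats with choroid plexus markers and the TPM difference relative to the median gene were chosen after seeing the data. The block was the number in the sample titles, which some rats of both genotypes share and which is not the replicate number used here. Whether it pairs the rats was not settled. No title number was shared between the ages, and all males at P21 had the same one. Promoters were taken from RefSeq, build GRCr8. Depth is the total of expected counts, and precision is limited by the 3 to 5 rats per group and, for genes with few counts such as Rgs18, by depth.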

Additional observations from a re-analysis of the deposited data

Results flagged for a closer look

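Of 245 groups of 4 or 5 rats examined gene by gene, 16 held a rat that stood apart from the others by Dixon's criterion; chance gives about 1 in 20. In males at P56 these were the WT rats with 697 normalized counts of Itpripl1 (the next highest had 106, and this rat had 6196 TPM of choroid plexus markers), 5440 of Ppp1r12b (next 4318) and 2343 of Ryr1 (next 1788). In females at P56 they were R237H rats with 10201 of Atp2b2 (next 12684), 4018 of Cacng3 (next 2926) and 535 of Plcd4 (next 813), and WT rats with 10409 of Cacnb3 (next 7662), 145 of Gna15 (next 80.3) and 180 of Rgs13 (next 99.6). R237H female 4, which had 1696 TPM of choroid plexus markers, gave the Atp2b2 and Plcd4 values. In males at P21 they were WT rats with 88.1 of Gna15 and 4121 of Ppp1r12b, and R237H rats with 36599 of Camk2b, 2565 of Ppp1r1a and 897 of Ryr1. The Ppp1r12b value came from WT male 1, which had 1033 TPM of choroid plexus markers. R237H male 2 gave both the Camk2b and the Ryr1 values. In females at P21 a single R237H rat, replicate 1, had both 51039 of Camk2b (next 42254) and 2768 of Ppp1r1a (next 2365). The cause of these values was not tested.

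The difference between the genotypes changed with age, by the interaction term in edgeR, for 13 of the genes described rat by rat in males. It became more positive for Prkcd (1.08), Itpripl2 (1.25), Itpr2 (0.69) and Prkab1 (0.59). It became more negative for Ppp1r1a (-1.16), Ppp1r1b (-1.15), Ryr1 (-1.02), Camk2b (-0.84), Pde1b (-0.80), Gnal (-0.78), Camkk1 (-0.73), Camkk2 (-0.63) and Atp2b2 (-0.59). In females the term passed for 6: Rgs18 (2.08), Prkcd (1.19) and Itpripl2 (1.18), and Ppp1r1b (-0.81), Pde1b (-0.73) and Ppp1r1a (-0.71). The 4 more negative calls in females became 0 without the rats with choroid plexus markers.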

How the results depend on the processing

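Counts are of members listed through other rats, and causes were not tested. In males at P56 no alternative moved the 26 increases or 20 decreases by over 1.5 times, and leaving out a rat gave 21 to 27 and 18 to 21. In females at P56, leaving out a rat gave 21 to 26 increases and 25 to 27 decreases. Correlations between R237H and WT rats sharing the number in the sample titles ran from -0.017 to 0.465, and those between other rats from -0.313 to 0.311. Whether that number pairs the rats was not settled. As a replicate block it lowered the 28 decreases in females at P56 to 13, and in females at P21 it gave 3 increases and 1 decrease. In males at P21 the 10 decreases became 17 with both sexes and a covariate, 2 with all 32 rats in 1 model, and 4 to 9 without a rat (4 without WT 2, 5 without WT 3, 6 without R237H 3 and 5 without R237H 4). The 21 increases there were 20 to 21 without a rat, 26 with the covariate and 19 with all 32 rats. In females at P21 the 16 increases became 28 with the covariate, 6 without the choroid plexus rats and 4 to 18 without a rat (4 without WT 1, 6 without WT 2, 5 without WT 3 and 9 without R237H 3). The 2 decreases there became 18 with the covariate, 8 with all rats, 6 by the likelihood-ratio test, DESeq2 or an FDR under 0.05, and 2 to 5 without a rat (5 without R237H 5). The covariate fit includes rats whose lists chose the members. For age by genotype in males, the 9 increases became 14 at an FDR under 0.05. In females the 3 became 5 by the likelihood-ratio test and 6 at an FDR under 0.05, and the 4 decreases became 0 without the choroid plexus rats, 7 by the likelihood-ratio test, 2 with RLE factors and 12 at an FDR under 0.05. For WT rats by age, the choroid plexus rats left out gave 0 and 0 in males, and 1 and 0 in females; the likelihood-ratio test gave 2 decreases in males and 7 increases in females, and an FDR under 0.05 gave 8 and 4 in females. Among 144 values of single genes, signs turned only for uncalled values: Ppp1r12b in males at P56 without WT 1 (0.002; -0.125 to 0.002 over all rats left out), Ryr1 in males at P21 without R237H 2 (0.037; -0.174 to 0.037), and in females at P21 Atp2a3 without WT 1 (0.015) or R237H 5 (0.096; -0.092 to 0.096), Cacng3 without R237H 2 (-0.054; -0.054 to 0.077) or the choroid plexus rats (-0.028), and Itpripl1 without WT 3 (0.622; -0.639 to 0.622) or those rats (0.522). Without the choroid plexus rats 126 of the 144 kept their side of the threshold, 12 lost it and 4 gained it; on the TPM scale 58 values moved by over the spread between rats, and relative to the median gene 0 did.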
